A study of Mus musculus with 12 samples.

Results

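The genes of the mitochondrial respiratory chain and the ATP synthase were examined in 12 RNA-seq libraries of MLE-12 cells, a line of mouse lung epithelial cells that stands for alveolar type II (AT II) cells. The members were every gene whose name places it among the subunits of complexes I to V (Ndufa, Ndufb, Ndufc, Ndufs and Ndufv with a number, Sdha to Sdhd, Uqcr, Cox4 to Cox8, Atp5) or among the protein genes of the mitochondrial genome (mt-Nd, mt-Co, mt-Cytb, mt-Atp). 101 of 34745 genes in the table carried such a name. After 3 names ending in -ps and a number were left out, 98 members remained, 85 of them nuclear and 13 mitochondrially encoded. The nuclear members belonged to complex I (35 genes), complex II (4 genes), complex III (8 genes), complex IV (20 genes, with Ndufa4 and Ndufa4l2 placed here) and complex V (18 genes). Nuclear complex V took every Atp5 name, among them Atp5s, Atp5sl and Atp5l2-ps, whether or not the gene encodes a subunit of the ATP synthase. The mitochondrial members belonged to complex I (7 genes), complex III (1 gene), complex IV (3 genes) and complex V (2 genes).

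There were 4 groups of 3 libraries, all taken at 24 h. LPS cells received 100 ng/mL lipopolysaccharide, a component of the bacterial outer membrane, in 21% oxygen. Hyp cells were kept in 85% oxygen. LPS + M2-Exo and Hyp + M2-Exo cells had in addition 10 µg/mL of M2-Exo, exosomes from macrophages of the M2 type (the MH-S line driven by IL-4, per the study's methods). All groups were the same immortalised line, and no library came from untreated cells, so the LPS and Hyp models could be set against each other but neither against uninjured cells. LPS and Hyp differed in both the LPS and the oxygen, whose parts cannot be told apart. The labels do not say whether the 3 libraries of a group came from separate cultures, and p-values then measure the spread between these libraries only.

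Total counts ran from 16021833 to 24074616 per library and were higher in every Hyp-model library than in every LPS-model library. Of the AT II markers, Sftpc (240 to 433 counts), Nkx2-1 (785 to 3223 counts) and Abca3 (2825 to 3757 counts) were detected in every library. The summed level of 12 AT II and epithelial markers was 562 to 578 CPM (counts relative to TMM-scaled library size) in LPS, 550.2 to 576 in LPS + M2-Exo, 343 to 358 in Hyp and 328 to 351 in Hyp + M2-Exo, with 7 of the 8 tested lower in Hyp and Sftpb higher (23 to 33 counts in LPS, 94 to 122 in Hyp). Sftpa1 and Sftpd did not exceed 1 count and Krt18 did not exceed 4. The summed level of 9 macrophage markers was 386 to 429 CPM in LPS, 303 to 345 in LPS + M2-Exo, 90.6 to 96.6 in Hyp and 70.3 to 109 in Hyp + M2-Exo, with Csf1r between 1228 and 2063 counts in the LPS-model libraries and between 300 and 554 in the Hyp-model ones. Of 8 macrophage markers tested in Hyp against LPS, 7 were lower and 0 higher. Mrc1 had 12 to 18 counts in LPS and 13 to 17 in Hyp, and Arg1 had at most 3 in any library. The 4 fibroblast and endothelial markers summed to 32.0 to 34.6 CPM in the LPS-model libraries and 10.3 to 13.2 in the Hyp-model ones. They did not move together: of 3 tested in Hyp against LPS, 2 were lower and 1 was higher. Pdgfra had 312 to 427 counts in the LPS-model libraries and 21 to 38 in the Hyp-model ones. The endothelial marker Pecam1 went the other way, from 2 to 7 counts to 48 to 65. Depth and these markers therefore moved with the injury model beside every difference between LPS and Hyp given here, and their part in it was not tested. In bulk RNA, fewer cells of a type and less RNA per cell cannot be told apart.

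The respiratory chain passes electrons from NADH (complex I) and succinate (complex II) through ubiquinone to complex III and, by cytochrome c, to oxygen at complex IV, and the proton gradient so made drives ATP synthesis at complex V. Its subunits come from 2 genomes. Complex II is built from nuclear genes alone, whereas complexes I, III, IV and V each combine nuclear subunits with a few that are transcribed, as long polycistronic RNAs, from the circular mitochondrial genome. AT II cells make surfactant and are rich in mitochondria, and oxygen at high level is a known stress on their respiratory chain.

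The mitochondrial genes lie edge to edge, which sets how their reads can be assigned. The last bases of mt-Atp8 and the first of mt-Atp6 are the same 43 bases, and those of mt-Nd4l and mt-Nd4 share 7. The 60 bases around each overlap are shown from the GENCODE M21 transcripts (GRCm38), in the order given, at chrM:7910-7969, chrM:7927-7986, chrM:10114-10173 and chrM:10167-10226, all on the plus strand, with the shared bases in capitals.
mt-Atp8: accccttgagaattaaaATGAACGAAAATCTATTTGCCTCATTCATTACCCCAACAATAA
mt-Atp6: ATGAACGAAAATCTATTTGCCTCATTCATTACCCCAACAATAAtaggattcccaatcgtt
mt-Nd4l: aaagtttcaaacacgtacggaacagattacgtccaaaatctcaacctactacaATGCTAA
mt-Nd4: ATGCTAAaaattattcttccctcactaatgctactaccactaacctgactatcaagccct
Reads from these shared stretches belong to both genes of a pair, so their values are not independent. In the same annotation, at least 50% of the 50-base words of mt-Atp6, mt-Co1, mt-Co2, mt-Co3, mt-Nd3, mt-Nd4 and mt-Nd4l also occur in annotated nuclear copies of mitochondrial DNA, whereas mt-Nd1, mt-Nd6, mt-Cytb and mt-Atp8 share no such word with another gene.

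Of the 98 members, 91 (78 nuclear and all 13 mitochondrial) had enough counts to be tested in each comparison. The other 7 were Cox4i2, Cox6b2, Cox7a1, Cox7b2, Cox8b, Cox8c and Ndufa4l2, all of them isoforms known from particular tissues or states. Cox8b and Cox8c, known from muscle and testis, had no count in any library. Cox4i2, Cox6b2 and Ndufa4l2 had at most 2 counts in any library. Cox7a1, a heart and muscle isoform, reached 0.647 CPM at most. Cox7b2 had no count in the 6 LPS-model libraries and 4 to 9 counts in each Hyp-model library, and its mean of 0.277 CPM in Hyp was at least 1.73-fold higher than the 0.16 CPM that 3 counts make in the smallest LPS library.

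Per unit of length, the mitochondrial genes stood far above the nuclear ones. On the deposited FPKM scale (fragments scaled to gene length and library depth), mt-Co1, the catalytic subunit of complex IV, had the highest level over the 12 libraries (mean 6111 FPKM), followed by mt-Atp8 (4994 FPKM), mt-Atp6 (4197 FPKM) and mt-Co2 (4155 FPKM). mt-Nd6, which lies on the opposite strand to the other 12, was lowest of the 13 at 54.7 FPKM. The libraries were poly(A)-selected per the labels, and how far this selection sets the levels of mitochondrial RNA was not tested. Among nuclear members the highest were Cox6b1 (206 FPKM), Cox6a1 (204 FPKM) and Cox8a (184 FPKM) of complex IV, and Atp5b, the catalytic beta subunit of complex V, had 138 FPKM. Sdhd (101 FPKM) led complex II, Ndufb9 (81.7 FPKM), Ndufa2 (80.3 FPKM) and Ndufa6 (68.1 FPKM) led complex I, and Uqcrfs1, the Rieske iron-sulfur protein (81.2 FPKM), led complex III. The LPS means of Cox6b1 (199 ± 9.98 FPKM, SD, n = 3) and Cox6a1 (179 ± 2.36 FPKM) were close, and the order of such neighbours changed in Hyp, where Cox6a1 (228 FPKM) exceeded Cox6b1 (199.9 FPKM). The gene lengths implied by the deposited FPKM equalled the full exon length of the annotation for 21 of 96 members when rounded to a whole base, all 13 mitochondrial genes among them, and lay within 10% of it for 26, which limits comparisons of level between genes.

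The difference between the injury models was clearest in the genes of the mitochondrial genome. In LPS the 13 mitochondrial genes took 4.16%, 4.17% and 3.85% of the counts of the 3 libraries, and in Hyp 2.80%, 2.86% and 2.62%. The groups did not overlap, and the ratio of the Hyp mean to the LPS mean was 0.680 ± 0.0428 (SD, n = 3). With M2-Exo the shares were 3.62%, 3.96% and 3.74% in LPS + M2-Exo and 2.74%, 2.92% and 2.79% in Hyp + M2-Exo, again without overlap, at a ratio of 0.746 ± 0.0432. The summed nuclear members moved the other way, from 0.635 to 0.652% of the counts in LPS to 0.701 to 0.722% in Hyp. Mitochondrial counts per nuclear count, a ratio that no scaling of the libraries changes, were 6.29 ± 0.195 in LPS, 5.75 ± 0.244 in LPS + M2-Exo, 3.89 ± 0.218 in Hyp and 3.88 ± 0.144 in Hyp + M2-Exo (SD, n = 3).

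**Figure D1:**
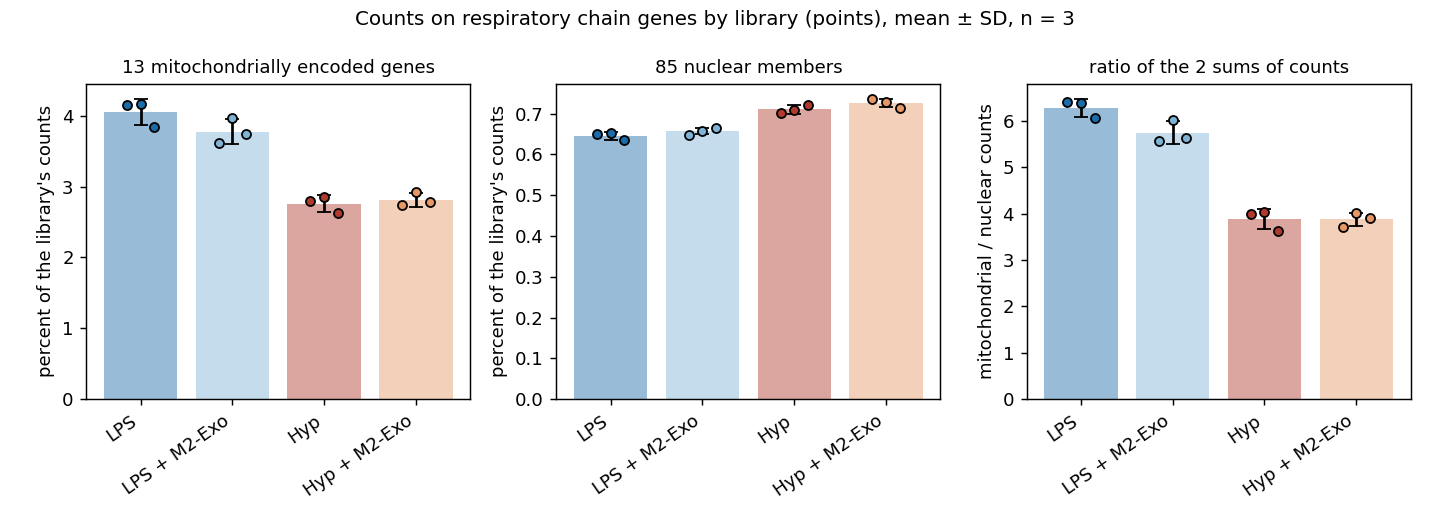
Share of each library's counts on the 13 mitochondrial genes (left, percent), on the 85 nuclear members (middle, percent) and the ratio of the 2 sums (right), by group, with points for libraries and bars for the mean ± SD (n = 3). Every Hyp-model library has a mitochondrial share between 2.62% and 2.92%, below every LPS-model library (3.62% to 4.17%), whereas the nuclear share is higher in the Hyp model.

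All 13 mitochondrial genes were lower in Hyp than in LPS at an adjusted p under 0.05 in edgeR's quasi-likelihood test, with log2 fold changes from -0.82 to -0.35 and a median of -0.61. Among all 13805 genes tested, 37.8% were called lower, and the median was 0.01. The 13 come from the same genome as long polycistronic RNAs, so their calls are not 13 independent results. mt-Co1 had 12565, 12683 and 11901 CPM in the LPS libraries and 7174, 7187 and 6752 CPM in the Hyp libraries, so the 2 groups lay well apart (log2 fold change -0.81, standard error 0.0493, adjusted p = 2.03e-06). mt-Nd1, a core subunit of complex I, had 2977, 2993 and 2697 CPM in LPS and 2321, 2404 and 2075 CPM in Hyp, a smaller gap that still left no overlap (-0.35, standard error 0.0642, adjusted p = 0.00133). mt-Nd2, its neighbour, had the same log2 fold change (-0.35, standard error 0.0435).

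The decrease was uneven along the genome. The counts of mt-Co1 per count of mt-Nd1 were 4.22 to 4.41 in LPS and 2.99 to 3.25 in Hyp. They were 4.02 to 4.27 in LPS + M2-Exo and 2.94 to 3.16 in Hyp + M2-Exo, so the Hyp-model libraries were below the LPS-model ones in both pairs. Between these extremes lay mt-Co2 (-0.68), mt-Cytb of complex III (-0.67), mt-Nd4l (-0.67), mt-Nd4 (-0.67), mt-Co3 (-0.61), mt-Nd5 (-0.59), the complex V genes mt-Atp6 (-0.59) and mt-Atp8 (-0.59), and mt-Nd3 (-0.43). mt-Nd6 fell by 0.82 on the log2 scale (standard error 0.196, adjusted p = 0.00552), with 45.1, 29.6 and 26.8 CPM in LPS and 21.2, 20.3 and 16.2 CPM in Hyp. It was the least abundant and the most variable of the 13. It runs from base 13552 to base 14070 of the mitochondrial genome and overlaps the end of mt-Nd5, which stops at base 13565 on the other strand. In that short stretch the reads of the 2 genes cannot be separated where the counting ignored strand, a setting not given in the sources used here. The 4 genes that share no word with another gene had a median of -0.63, and the 7 that share at least 50% of their words had a median of -0.67. The annotated nuclear copies took 0.219 to 0.244% of the counts in LPS and 0.139 to 0.153% in Hyp, so they moved in the same direction as the mitochondrial genes.

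**Figure D2:**
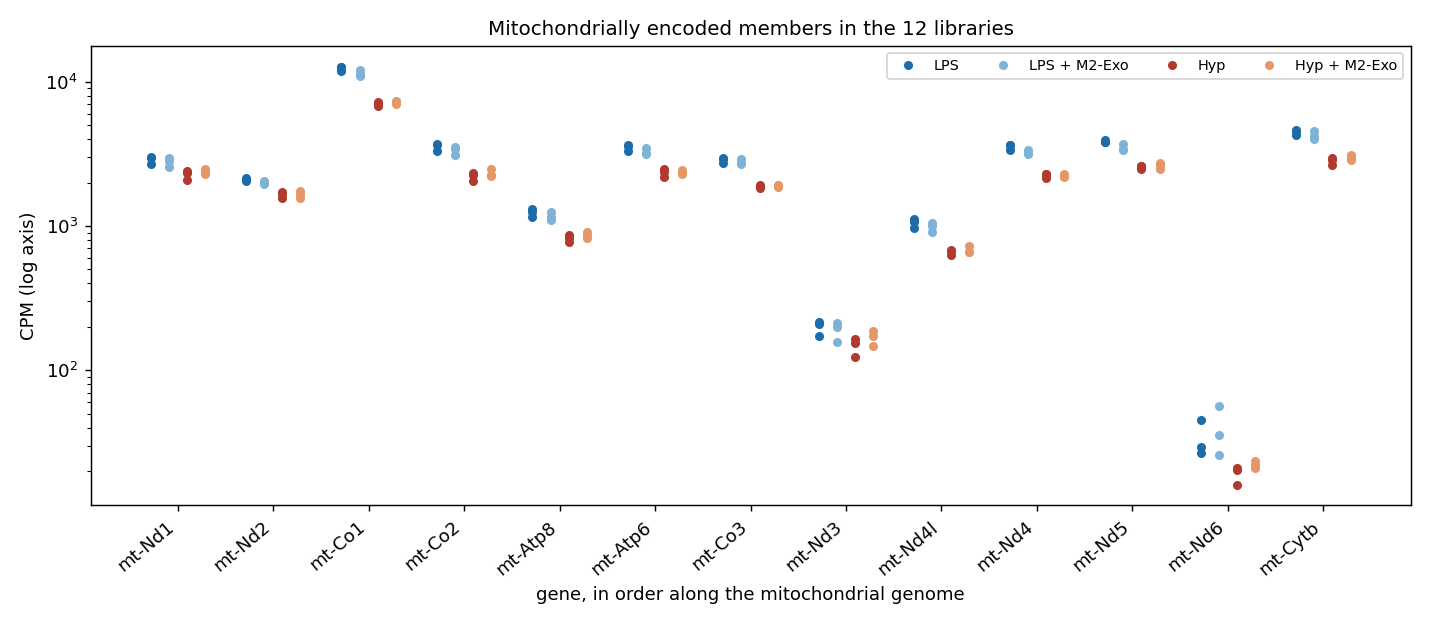
CPM of each mitochondrial gene on a log axis, in the order of the mitochondrial genome, with 1 point for each library and colours for the 4 groups. The Hyp-model points lie below the LPS-model points for mt-Co1 (6752 to 7321 against 10986 to 12683 CPM), and the gap is narrower at mt-Nd1, mt-Nd2 and mt-Nd3.

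In Hyp + M2-Exo against LPS + M2-Exo, which shares no library with the comparison above, 12 of the 13 mitochondrial genes were lower, beside 36.5% of all 13660 genes tested, and the median was -0.52. The exception was mt-Nd3, at -0.17 (standard error 0.124, adjusted p = 0.246), whose libraries overlapped with 156, 200.4 and 212 CPM in LPS + M2-Exo and 146, 187 and 173 CPM in Hyp + M2-Exo. Without the first LPS + M2-Exo library it was called lower (-0.30, adjusted p = 0.0319 in edgeR). mt-Co1 (-0.67, adjusted p = 1.93e-05) and mt-Nd6 (-0.82, adjusted p = 0.0149) had the lowest values and mt-Nd1 (-0.23, adjusted p = 0.011) and mt-Nd2 (-0.27, adjusted p = 0.00178) again the smallest changes among those called. The call of mt-Nd1 was lost with library sizes alone (adjusted p = 0.0755) and with limma on FPKM (adjusted p = 0.0866).

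The nuclear members did not move as a block. In Hyp against LPS, 22 of the 78 tested were higher, 23 were lower and 33 were not called, and their median log2 fold change was -0.01. The members called higher were 28.2% of the 78 against 38.0% of all genes tested, and those called lower were 29.5% against 37.8%. Of the nuclear members whose locus overlaps another gene, 72.7% were called in either direction, and 51.8% of those without overlap. In Hyp + M2-Exo against LPS + M2-Exo, 23 were higher and 18 lower (median 0.01), against 37.1% and 36.5% of all genes called higher and lower. Of 34 nuclear members called in both comparisons, all 34 had the same direction, 18 higher and 16 lower. Over the 78 nuclear members the log2 fold changes of the 2 comparisons had a Pearson r of 0.953 (across genes, which are not independent replicates). Cox6a2, at 4.23 and 3.80, lay far from the others and weighs heavily on this r, and no value without it is given. By sign alone, 36 of the 78 were above 0 in both comparisons and 36 below 0 in both. The same agreement over all genes, by call or by sign, is not given beside these counts. Since 75.8% and 73.7% of all genes tested were called in the 2 comparisons, the agreement is not read as particular to the members. The balance depended on the scaling: with library sizes alone, all members called in Hyp against LPS split into 31 higher and 29 lower, in place of 22 and 36, while all 13 mitochondrial genes stayed lower. With M2-Exo in both groups, the split was 31 higher and 26 lower in place of 23 and 30.

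**Figure D3:**
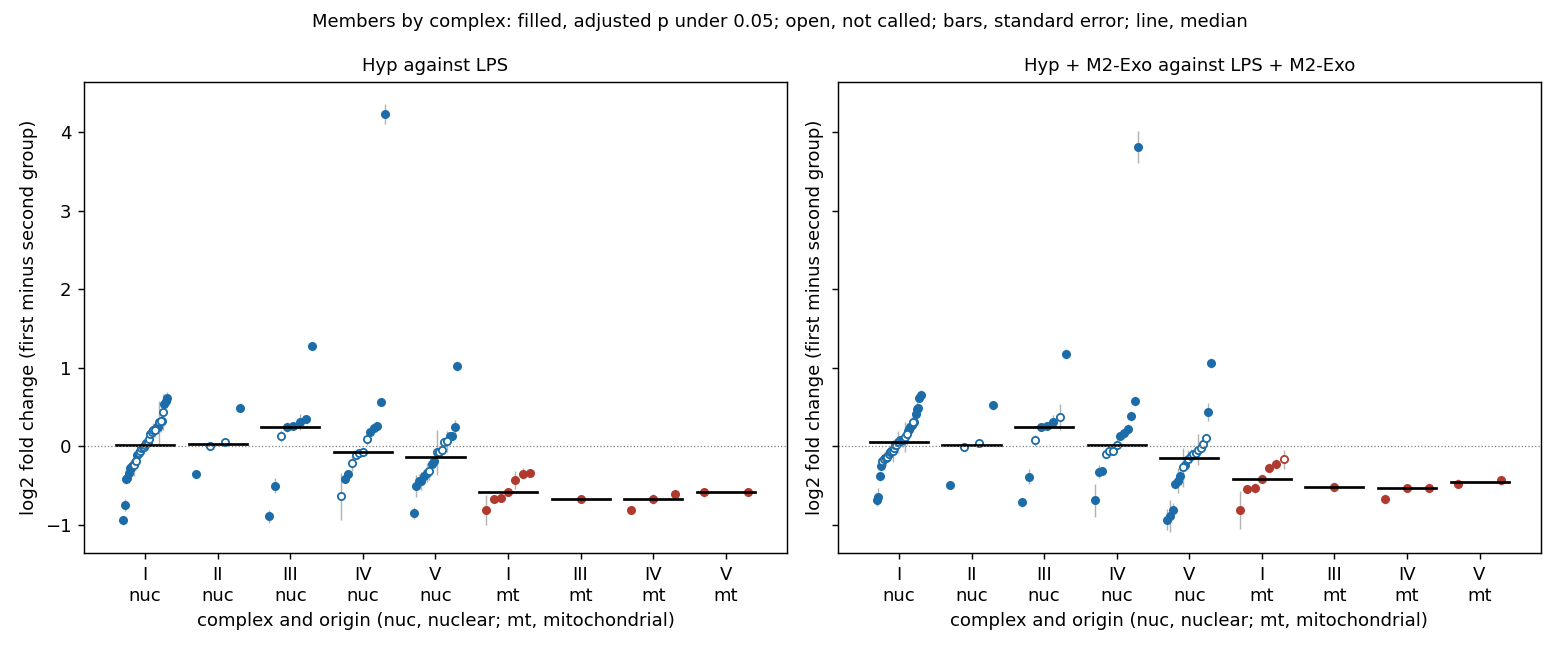
Log2 fold change of each tested member (points, with standard errors) by complex and origin, in Hyp against LPS (left) and Hyp + M2-Exo against LPS + M2-Exo (right), where filled points have an adjusted p under 0.05 and the line is the median. The mitochondrial genes sit below 0 in each complex, the nuclear members spread on both sides of it, and Cox6a2 stands alone at 4.23 and 3.80.

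Among the 35 nuclear members of complex I, 7 were higher and 10 lower in Hyp, and with M2-Exo in both groups 10 were higher and 5 lower. The shares called, 48.6% and 42.9%, were below the 75.8% and 73.7% of all genes tested. Ndufb6 (0.61), Ndufa10 (0.57) and Ndufa9 (0.54), accessory subunits, had the largest increases, followed by Ndufb9 (0.31), Ndufb3 (0.25) and Ndufa8 (0.24). The locus of Ndufb6 overlaps Toporsos, with 31.6% of its 50-base words in another annotated gene, and that of Ndufa9 overlaps Gm42574. Ndufa6, an accessory subunit of the LYR family, fell most. It had 49.3, 52.7 and 49.4 CPM in LPS and 27.8, 25.1 and 25.6 CPM in Hyp, with no overlap (log2 fold change -0.95, standard error 0.0603, adjusted p = 2.7e-06). Ndufa13, also known as GRIM-19, went from 64.8 ± 1.78 to 38.6 ± 3.81 CPM (SD, n = 3), a log2 fold change of -0.75, with overlap of its locus by Tssk6 and Yjefn3 in the annotation. Ndufv3 (-0.42), Ndufb5 (-0.40), Ndufb2 (-0.35) and Ndufa2 (-0.26) were also among the lower ones. The call of Ndufb2 was lost without any 1 of the Hyp libraries (adjusted p of up to 0.0901), with library sizes alone and with limma on FPKM, and that of Ndufb3 without the LPS libraries 2 or 3 or the Hyp libraries 1 or 2 (adjusted p of up to 0.137). With M2-Exo in both groups, Ndufa5 (0.47) and Ndufs6 (0.31) were also called higher, and Ndufa6 was again lower (-0.65).

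In complex II, which has no mitochondrial subunit, 1 of the 4 genes was higher and 1 was lower (50% called against 75.8% of all genes). Sdhb, the iron-sulfur subunit, had 73.0, 72.8 and 71.4 CPM in LPS and 105.5, 101.3 and 96.9 CPM in Hyp (log2 fold change 0.48, adjusted p = 1.6e-05). Sdhc, a membrane anchor of the same complex, had 79.6, 78.8 and 77.5 CPM in LPS and 61.3, 58.6 and 64.6 CPM in Hyp (-0.35, adjusted p = 0.000199). For both genes the groups did not overlap, and the directions were the same with M2-Exo (0.52 and -0.49). Sdha, which carries the flavin, had a log2 fold change of -0.01 (standard error 0.0348) and Sdhd, the other anchor, 0.05 (standard error 0.0381), and neither was called.

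In complex III, 5 of 8 nuclear members were higher and 2 lower, 87.5% called against 75.8% of all genes. With M2-Exo in both groups 4 were higher and 2 lower, 75% called against 73.7% of all genes. Uqcrq, a small subunit near the ubiquinone site, had 47.3, 49.3 and 46.0 CPM in LPS and 118, 111 and 115 CPM in Hyp. Every Hyp library was above every LPS library (log2 fold change 1.27, standard error 0.0442, adjusted p = 1.27e-07), and the value with M2-Exo was 1.17. The core protein Uqcrc2 (0.35), the Rieske protein Uqcrfs1 (0.25) and Uqcr10 (0.30) rose by less, and the call of Uqcr10 was lost without LPS library 3 or Hyp library 1 or 3 (adjusted p of up to 0.0873) and in a fit of all 12 libraries. In contrast, Uqcrh, the acidic hinge protein that helps bind cytochrome c1, had 93.1, 90.1 and 85.1 CPM in LPS and 41.8, 50.6 and 51.6 CPM in Hyp (-0.90, adjusted p = 2.25e-05), and Uqcr11 was lower as well (-0.50).

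In complex IV, 13 of 20 nuclear members were tested, of which 5 were higher and 2 lower, and 6 and 3 with M2-Exo in both groups. The shares called were 53.8% and 69.2%, against 75.8% and 73.7% of all genes tested. Cox6a2 is the isoform of subunit 6A that heart and skeletal muscle use in place of Cox6a1. It had 0.934, 1.45 and 1.08 CPM in LPS and 21.8, 21.3 and 22.4 CPM in Hyp, a change far beyond the spread (log2 fold change 4.23, standard error 0.129, adjusted p = 7.43e-08). With M2-Exo the values were 1.36, 1.04 and 1.79 CPM against 20.6, 22.4 and 16.3 CPM (3.80, standard error 0.204). Cox6a2 counts were 0.424 to 0.672% of those of Cox6a1 in LPS and 7.95 to 8.74% in Hyp. On the FPKM scale, which takes in gene length, Cox6a2 was 0.742 to 1.18% of Cox6a1 in LPS and 13.9 to 15.3% in Hyp. The ubiquitous isoform stayed the more abundant on both scales. The gene lies at chr7:128205435-128206387 on the minus strand of GRCm38, inside the span of Itgad, which had at most 4 counts in any library. The 5 muscle markers, Ckm, Actn2, Myh6, Myh7 and Des, summed to 0.161 to 0.385 CPM in LPS and 0.789 to 0.95 CPM in Hyp, with Ckm at 0 in all 12 libraries. These sums lie near the floor. Des had the most counts of the 5, with 2 to 7 in LPS and 7 to 15 in Hyp. Actn2, Myh6 and Myh7 had at most 6 in any library of these 2 groups. None of the 5 had enough counts to be tested in Hyp against LPS.

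Cox5a (0.56), Cox6a1 (0.26) and Cox8a (0.23) were also higher in Hyp. Cox7a2l, a factor of respiratory supercomplexes (-0.42), and Cox7b (-0.35) were lower. Cox4i1, the general isoform of subunit 4, was not called in Hyp against LPS (0.09, adjusted p = 0.327) but was with M2-Exo in both groups (0.38, adjusted p = 0.000481). The difference between these 2 values is the interaction of M2-Exo with the model, which gave 0.30 (standard error 0.109) and failed the adjustment over all genes (adjusted p = 0.415). Cox7c, at 1.60 to 5.02 CPM over the 12 libraries, was lower in that comparison (-0.69), a call lost without the first LPS + M2-Exo or the second Hyp + M2-Exo library (adjusted p of up to 0.0652), and 22.1% of its 50-base words occur in other annotated genes.

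In complex V, 4 nuclear members were higher and 8 lower, and 2 and 7 with M2-Exo in both groups. The shares called were 66.7% and 50%, against 75.8% and 73.7% of all genes tested. Atp5s, placed here by name, was among the lower ones in both comparisons. Atp5sl, also placed by name, was lower in the first, a call that held in 2 of 6 fits with a library left out. The ring of c subunits, through which protons pass, is encoded by 3 genes for the same mature protein. Atp5g1 had 22.5, 23.9 and 23.9 CPM in LPS and 44.7, 48.5 and 49.0 CPM in Hyp, without overlap (log2 fold change 1.02, standard error 0.0608, adjusted p = 1.88e-06), and its value with M2-Exo was 1.06. Atp5g3, named after its values were seen, had the most counts of the 3, at 134.8 ± 2.63 CPM in LPS and 147.6 ± 5.43 CPM in Hyp (SD, n = 3; log2 fold change 0.13, adjusted p = 0.0113 in edgeR). Atp5g2, of whose 50-base words 38.3% occur in other genes, was not called (0.06, standard error 0.134), and it was lower with M2-Exo in both groups (-0.89). Atp5b (0.13) and Atp5f1 (0.24), the latter part of the peripheral stalk, were higher. Atp5e, the epsilon subunit of the central stalk, had 42.2, 38.4 and 36.3 CPM in LPS and 20.4, 21.5 and 22.9 CPM in Hyp (-0.85, adjusted p = 1.64e-05). Its partners in that stalk, Atp5c1 (-0.45) and Atp5d (-0.44), were lower too, as were Atp5s (-0.51), Atp5j2 (-0.38), Atp5l (-0.34) and Atp5j (-0.23). The calls of Atp5f1, Atp5j and Atp5l were lost when single libraries were left out, at adjusted p of up to 0.114, 0.0807 and 0.141. Those libraries were LPS 1, LPS 3 and Hyp 3 for Atp5f1, libraries 1 and 2 of both groups for Atp5j, and every library but LPS 1 for Atp5l. The alpha subunit Atp5a1, the partner of Atp5b in the catalytic head, was not called (0.05, adjusted p = 0.219), nor was Atp5o (-0.06).

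**Figure D4:**
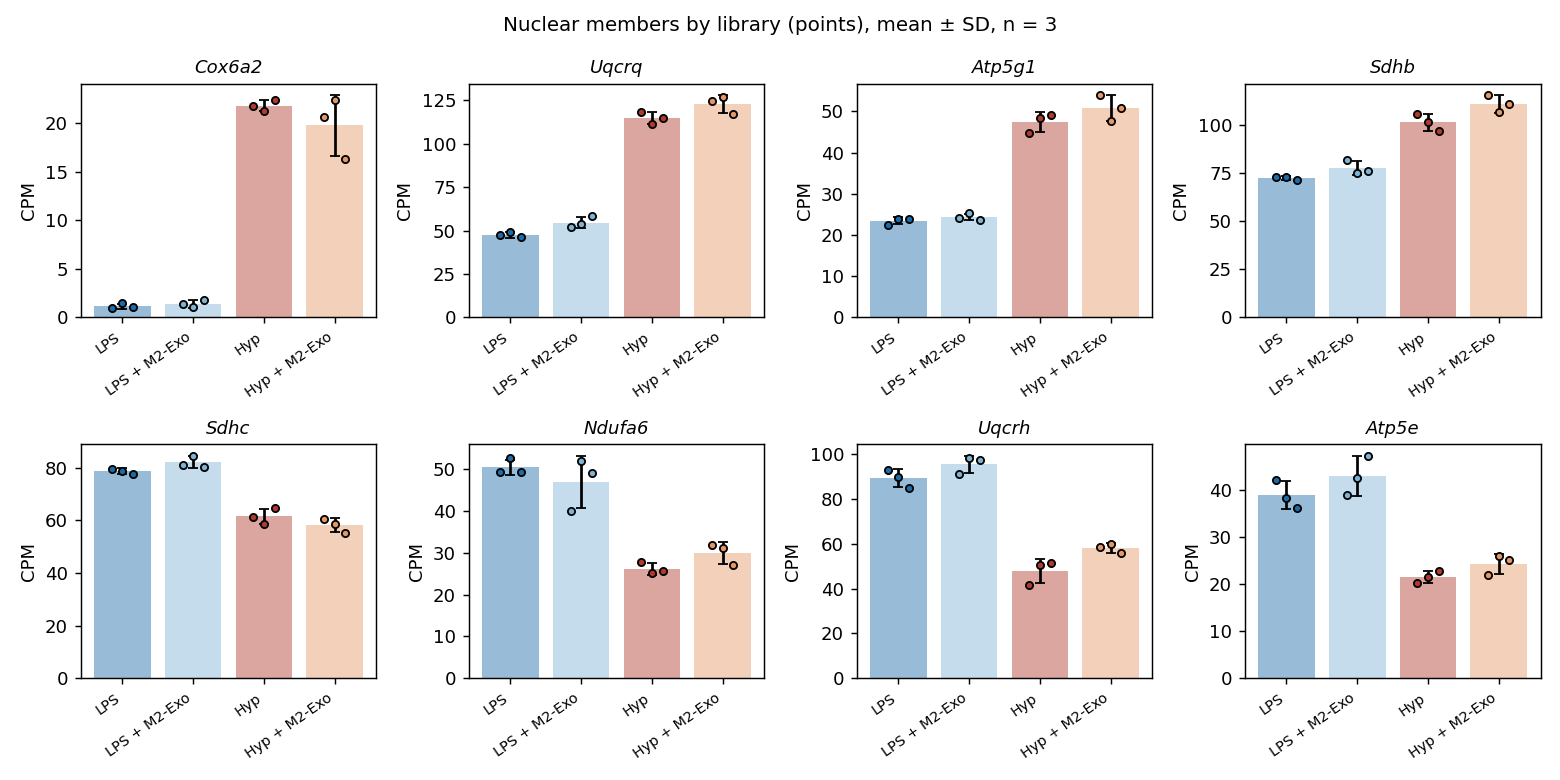
CPM of 8 nuclear members in each library (points) with the mean ± SD (bars, n = 3), by group. Cox6a2, Uqcrq, Atp5g1 and Sdhb are higher and Sdhc, Ndufa6, Uqcrh and Atp5e lower in both Hyp-model groups, and the libraries with M2-Exo lie near those without it.

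Members that moved in opposite directions were also compared by promoter sequence, from 250 bases before to 50 after the transcription start, taken from RefSeq (GRCm38.p6), which held a promoter for 66 of the 85 nuclear members. Those of 2 members that were higher in Hyp (Atp5g1, chr11:96075582-96075881, minus strand, and Sdhb, chr4:140961021-140961320, plus strand) and 2 that were lower (Ndufa6, chr15:82354242-82354541, minus strand, and Uqcrh, chr4:116075021-116075320, minus strand) are shown. Capitals mark matches on either strand to GCATGCGC (the NRF1 motif) and CCGGAAG (the motif of ETS factors such as GABPA). AAGATGGC (YY1), whose first 3 letters can overlap the end of the ETS motif, was searched as well.
Atp5g1: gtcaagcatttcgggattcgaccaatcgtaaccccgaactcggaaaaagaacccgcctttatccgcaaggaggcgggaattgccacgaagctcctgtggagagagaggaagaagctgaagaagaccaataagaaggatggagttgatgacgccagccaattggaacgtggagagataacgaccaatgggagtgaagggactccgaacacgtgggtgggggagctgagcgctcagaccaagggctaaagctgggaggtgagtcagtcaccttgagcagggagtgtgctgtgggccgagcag
Sdhb: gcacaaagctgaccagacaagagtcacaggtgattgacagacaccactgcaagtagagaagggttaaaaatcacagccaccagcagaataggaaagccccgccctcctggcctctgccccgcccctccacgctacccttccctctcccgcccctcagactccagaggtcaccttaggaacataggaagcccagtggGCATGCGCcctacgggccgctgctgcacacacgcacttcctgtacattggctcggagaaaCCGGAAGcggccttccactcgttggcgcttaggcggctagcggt
Ndufa6: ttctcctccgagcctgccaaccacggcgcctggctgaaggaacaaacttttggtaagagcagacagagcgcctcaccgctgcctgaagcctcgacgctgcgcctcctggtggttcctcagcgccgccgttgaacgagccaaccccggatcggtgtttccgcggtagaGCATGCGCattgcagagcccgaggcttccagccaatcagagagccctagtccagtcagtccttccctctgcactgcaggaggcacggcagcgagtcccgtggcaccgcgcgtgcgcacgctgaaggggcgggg
Uqcrh: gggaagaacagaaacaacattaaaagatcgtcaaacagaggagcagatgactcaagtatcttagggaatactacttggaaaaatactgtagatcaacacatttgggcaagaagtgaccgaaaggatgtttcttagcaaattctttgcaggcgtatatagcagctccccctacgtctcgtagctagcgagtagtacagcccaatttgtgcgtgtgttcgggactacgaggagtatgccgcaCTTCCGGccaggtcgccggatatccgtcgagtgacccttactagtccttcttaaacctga
The NRF1 letters occurred in 10 of the 66 nuclear members (15.2%) and 3.05% of all 27025 genes with a promoter, the ETS letters in 24.2% and 9.93%, and the YY1 letters in 13.6% and 3.19%. Of the members shown, Sdhb held the NRF1 and ETS letters, Ndufa6 the NRF1 letters, Uqcrh the ETS letters and Atp5g1 none of the 3. Among members with a promoter, the ETS letters occurred in 5 of 17 that were higher and in 5 of 17 that were lower in Hyp, the NRF1 letters in 4 of 17 and 3 of 17, and the YY1 letters in 1 of 17 and 3 of 17. A match of letters is a description and not a site of binding, and these shares were not tested.

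Other genes of the respiratory chain's supply, taken from lists written by name, moved more often toward higher levels in Hyp. Of 30 genes for the expression of mitochondrial DNA and the handling of its RNA, 23 were higher and 1 was lower (76.7% and 3.33%, against 38.0% and 37.8% of all genes), with a median log2 fold change of 0.59, while the RNAs of that genome were lower. Lrpprc, which stabilises mitochondrial mRNA, rose from 105 to 214 CPM on average (1.03, adjusted p = 6.7e-08), Fastkd5, which acts in mitochondrial RNA processing, by 1.27, Top1mt, a mitochondrial topoisomerase, by 1.22 and Mterf1a, a transcription factor of mitochondria, by 1.25. Tfam, which packs mitochondrial DNA and starts its transcription, rose by 0.22 (adjusted p = 0.0129), and Hsd17b10, a subunit of mitochondrial RNase P, fell by 0.56. Tfam and Hsd17b10 were picked after their values were seen. With M2-Exo in both groups, 24 were higher and 1 lower, against 37.1% and 36.5% of all genes.

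Of 46 assembly factors tested, 24 were higher and 3 lower (52.2% and 6.52%, against 38.0% and 37.8% of all genes), with a median of 0.31. Among the higher ones were Cox10, needed for the heme of complex IV (1.35), Tmem126b of complex I (1.23), Coa4 (1.14) and Taco1, a translational activator of mt-Co1 (1.10), whereas Ndufaf3 of complex I was lower (-0.99). Of 6 subunits and carriers that the names did not cover, 4 were higher and 1 was lower (66.7% and 16.7%, against the same shares of all genes), a list too short to weigh. Cytochrome c (Cycs, 0.90), Ndufab1 of complex I (0.79) and cytochrome c1 (Cyc1, 0.51) were higher, and Atpif1, the inhibitor of the ATP synthase, was lower (108.6 to 39.1 CPM on average, -1.47, adjusted p = 8.23e-05). Among 14 regulators of respiratory genes tested, 7 were higher and 3 lower (50% and 21.4%, against 38.0% and 37.8% of all genes). Of these the coactivators Pprc1 (1.07) and Ppargc1a (0.91) and the GABP subunit Gabpb1 (0.84) had the highest values and Myc the lowest (-0.52).

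M2-Exo changed no respiratory chain gene past the threshold of edgeR in either model, and 1 past that of DESeq2. In LPS + M2-Exo against LPS, 0 of the 91 members were called, by edgeR and by DESeq2, while 25 of 13353 genes were (0.187%). At an unadjusted p under 0.05 there were 10 members, against 11.1% of all genes. In Hyp + M2-Exo against Hyp, edgeR called 0 of 91 members and 14 of 13815 genes (0.101%), and 16 members had an unadjusted p under 0.05, against 8.48% of all genes. DESeq2 called 1 member there, Atp5j2, which had 97.8, 105 and 89.1 CPM in Hyp and 121, 145 and 111 CPM in Hyp + M2-Exo (edgeR log2 fold change 0.36, adjusted p = 0.541; DESeq2 adjusted p = 0.0367). Its 3 libraries with M2-Exo lay above the 3 without.

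The effects were small and had one sign more often than the other in the nuclear members. The median log2 fold change was 0.06 in LPS and 0.08 in hyperoxia, against 0.003 and -0.002 over all genes tested. Of the 78 nuclear members, 61 and 60 had a value above 0, with standard errors whose medians were 0.0658 and 0.0638. Members measured in the same libraries are not independent, and these counts were not tested. The mitochondrial genes had medians of -0.08 in LPS, with 12 of 13 below 0, and 0.04 in hyperoxia, with 12 of 13 above 0. The spread between libraries of these 2 medians (SD 0.0813 and 0.0733) was as large as the medians or larger, and with a library left out they ran from -0.14 to -0.047 and from 0.0066 to 0.067. Over the 78 nuclear members, the log2 fold changes of M2-Exo in the 2 models, which share no library, had a Pearson r of -0.04. The summed share of all nuclear members overlapped between groups, with 0.635 to 0.652% in LPS and 0.649 to 0.664% in LPS + M2-Exo, and 0.701 to 0.722% in Hyp and 0.715 to 0.735% in Hyp + M2-Exo. By complex, 5 of 10 sums did not overlap, and each of these was higher with M2-Exo. In LPS they were complex III (0.0576 to 0.0583% of the counts without M2-Exo and 0.0598 to 0.0612% with it) and complex V (0.261 to 0.263% and 0.266 to 0.269%). In hyperoxia they were complex I (0.1700 to 0.171% and 0.177 to 0.182%), complex III (0.0714 to 0.0733% and 0.0737 to 0.0748%) and complex IV (0.135 to 0.137% and 0.141 to 0.144%). Only complex III stood apart in both models. The sums within a model come from the same libraries, and no share of all genes without overlap is given beside them. They were not tested, so no effect of M2-Exo is read from them.

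In LPS, the lowest unadjusted p belonged to Atp5j, a coupling factor of complex V (0.24, standard error 0.0599, adjusted p = 0.226), and Uqcrq had 0.20 (adjusted p = 0.301), mt-Nd5 -0.14 (adjusted p = 0.317) and mt-Co1 -0.11 (adjusted p = 0.409). The macrophage marker sum was lower in the 3 LPS + M2-Exo libraries than in the 3 LPS ones. Leaving out the first LPS library brought in 1 call, Ndufa1 (0.93, adjusted p = 0.0398), which had 24.3 CPM in that library and 11.8 and 10.6 CPM in the other LPS libraries, against 20.02 to 23.8 CPM in LPS + M2-Exo, and which was named after its values were seen. In hyperoxia, Ndufa2 of complex I had the lowest p (0.27, standard error 0.059, adjusted p = 0.464), followed by Atp5j2 and Ndufa1 (0.24, adjusted p = 0.541).

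**Figure D5:**
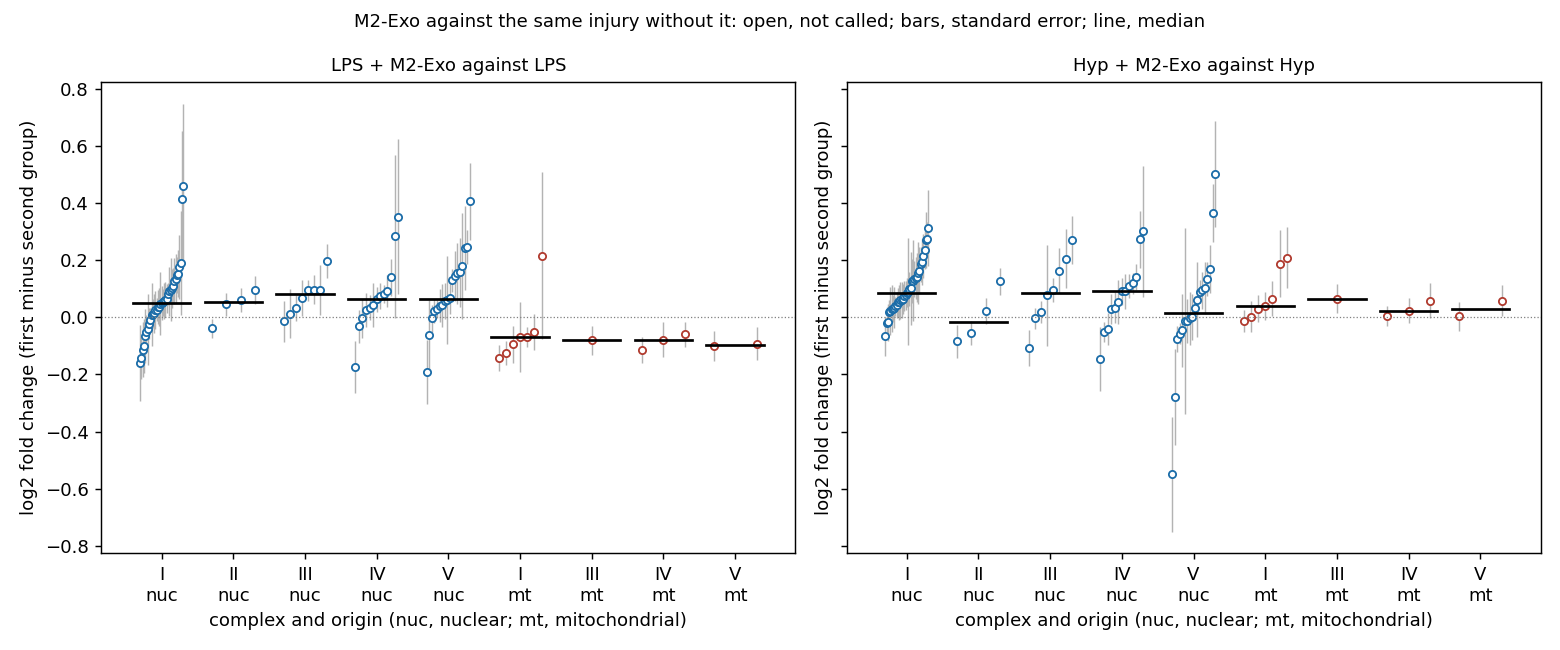
Log2 fold change (points, with standard errors) of M2-Exo in LPS (left) and in hyperoxia (right) for each tested member, by complex and origin, with the median as a line. No point is filled because no member had an adjusted p under 0.05, and the values range from -0.19 to 0.46 in LPS and from -0.55 to 0.50 in hyperoxia.

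Whether M2-Exo acted differently in the 2 models was tested with the interaction term over all 12 libraries. In edgeR it was called for 5 of 14187 genes (0.0352%), and in both edgeR and DESeq2 for 0 of the 91 members. In edgeR 7 members had an unadjusted p under 0.05. The share of all genes at that unadjusted threshold is not given, so nothing is read from the 7. The member with the widest difference was Atp5g2. It had 4.23, 5.38 and 4.85 CPM in LPS, 5.83, 6.34 and 6.98 CPM in LPS + M2-Exo, 4.54, 5.48 and 5.09 CPM in Hyp, and 3.79, 2.41 and 4.17 CPM in Hyp + M2-Exo. All libraries with M2-Exo were above those without it in LPS and below them in hyperoxia, a difference of -0.95 (standard error 0.252) that failed the adjustment (adjusted p = 0.281). The 13 mitochondrial genes had a median difference of 0.14, with 12 above 0, and mt-Nd5 had 0.18 (adjusted p = 0.432).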

How the data were processed

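RNA was measured by sequencing in 12 libraries, with poly(A) selection before library construction per the labels. Per the study's methods and the submitters' processing notes, the authors filtered reads with Seqtk and aligned them with HISAT2 2.0.4 to GRCm38, and the notes name StringTie 1.3.0 and edgeR. The counting program, its strand setting and its treatment of reads with several matches are not given in the sources used here. The table holds gene counts and FPKM deposited by the authors for each library, and both were used.

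The counts were fitted over all genes with edgeR 4.0.16 in R 4.3.3 (filterByExpr, TMM, quasi-likelihood F test, Benjamini-Hochberg adjustment over all genes tested), on the 6 libraries of each comparison and on all 12 for the interaction. A gene was called at an adjusted p under 0.05. Standard errors were taken from the log2 fold change and F. The scripts were tested on simulated data. Alternatives were RLE scaling, library sizes alone or from nuclear genes, other filters, DESeq2 1.42.0, 1 fit of all libraries, a replicate block, limma 3.58.1 on log2(FPKM + 1), and leaving out each library. Genes were named by a rule: the 13 mitochondrial members, up to 15 nuclear members called in each direction per comparison, the 3 highest by FPKM in each complex, tissue isoforms, and up to 5 called genes of each list. Members and lists were chosen with earlier results of these data known. Counting error sets the precision of a share only in part, since PCR copies are not independent molecules.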

Additional observations from a re-analysis of the deposited data

How the results depend on the processing

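The numbers of members called kept within 1.5 times under every alternative run in the comparisons of Hyp with LPS, and leaving out each library gave 51 to 58 calls in Hyp against LPS and 48 to 54 with M2-Exo in both. For M2-Exo, the exceptions to 0 calls were 1 with DESeq2 in hyperoxia and 0 to 1 with a library left out in LPS. Scaling by library size alone moved the median of all genes from 0.01 to 0.10 in both comparisons and the nuclear median to 0.084 in Hyp against LPS and 0.102 with M2-Exo in both, and the mitochondrial median to -0.52 and -0.43. With limma on FPKM these were 0.079, 0.094, -0.52 and -0.43, the members called split into 32 higher and 30 lower and into 29 and 27, and the nuclear median of M2-Exo in hyperoxia was 0.058. With a library left out, the nuclear median ranged from -0.016 to 0.030 in Hyp against LPS and from 0.052 to 0.091 for M2-Exo in hyperoxia. The Hyp to LPS ratio of the mitochondrial share was 0.619 with the nuclear members as the denominator and 0.675 with M2-Exo in both. Of the members called, 46 of 58 in Hyp against LPS and 43 of 53 with M2-Exo in both stayed called under every alternative and with each library left out, and no called member changed sign.

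Samples with the same number did not deviate together (correlations from -0.021 to 0.047), so the numbers do not pair the libraries. With the replicate block, 58 and 54 members were called in the comparisons of Hyp with LPS, and 0 for M2-Exo, where 6 and 8 genes of the whole table were called in LPS and hyperoxia in place of 25 and 14, and 3 in place of 5 for the interaction. The block took the calls of Ndufb3 (adjusted p = 0.0598), Atp5j (adjusted p = 0.0505), Atp5l (adjusted p = 0.0665) and Ndufs1 (adjusted p = 0.0536) in Hyp against LPS and of Cox8a (adjusted p = 0.0724) with M2-Exo in both, and it added Ndufa12, Ndufa5, Cox6c and Atp5k to the former (adjusted p of up to 0.0469) and mt-Nd3 (adjusted p = 0.0273) and Atp5j2 to the latter. DESeq2 called 125, 37 and 67 genes there, 1 fit of all 12 libraries called 12 and 2, leaving out the low-count filter gave 13 for the interaction, and leaving out a library gave 21 to 39, 12 to 21 and 4 to 34, the highest without the first LPS library in LPS and the first Hyp + M2-Exo library for the interaction. Without untreated cells and with the injury model tied to depth and macrophage markers, the differences between LPS and Hyp cannot be assigned to oxygen or LPS. The nuclear medians of Hyp against LPS, with and without M2-Exo, are smaller than the shift that scaling by library size makes. With 3 libraries a group, changes by M2-Exo of the size of the standard errors were not detectable. Adding the counts of nuclear copies, chosen after the data were seen, kept the ratio of the mitochondrial shares within the spread between libraries.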

Other observations

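Other mitochondrial gene groups differed between the injury models as well, counted beside 38.0% of all genes higher and 37.8% lower in Hyp. Of 12 genes of mitochondrial proteostasis, 9 were higher and 2 lower, led by the protease Lonp1 (184 to 604.5 CPM on average, log2 fold change 1.72) and the chaperones Hspa9 (1.46) and Dnaja3 (1.13), while the protease Htra2 was lower (-0.33). Of 9 genes of coenzyme Q synthesis tested, 7 were higher and 1 lower, with Pdss1, which makes the side chain, at 1.62, Pdss2 at 1.01 and Coq7 lower at -0.22. Of 18 genes of the TCA cycle, 11 were higher and 3 lower. Idh3a, a subunit of the NAD-dependent isocitrate dehydrogenase, was higher (99.1 to 161 CPM on average, 0.70), and Idh2, the NADP-dependent mitochondrial enzyme, was lower (204 to 62.0 CPM on average, -1.72, adjusted p = 5.91e-08). With M2-Exo in both groups, Lonp1 had 1.59, Pdss1 1.67, Idh3a 0.65 and Idh2 -1.85.

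With M2-Exo, edgeR called 0 genes of these 3 lists in either model. At an unadjusted p under 0.05 there were 1 of 18 genes of the TCA cycle, 1 of 9 of coenzyme Q synthesis and 1 of 12 of proteostasis in LPS, and 1, 0 and 3 in hyperoxia. Of all genes tested, 11.1% in LPS and 8.48% in hyperoxia passed that threshold.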
